A study of Mus musculus with 2 samples.

Results

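The genes described here are the axon guidance ligands and receptors of the mouse: netrins and netrin-Gs with their receptors, Slits and Robos, semaphorins with plexins and neuropilins, and ephrins with Eph receptors. They were chosen by name from the gene lists of both count tables, which hold 23912 genes. Of 75 matching symbols, 68 had at least 20 UMIs (unique molecular identifiers, the counted transcripts) over both libraries and were kept. The 7 left out were Robo4, Efna4, Sema3g, Epha2, Plxnd1, Sema3b and Plxnb3. Among the 68, 5 match by name only: Unc50 and Unc5cl are not netrin receptors, and Plxna4os1, Plxna4os2 and Plxna4os3 are transcripts named as opposite strand to Plxna4. The 63 others are 2 netrins, 2 netrin-Gs, 6 netrin receptors, 3 Slits, 3 Robos, 5 secreted class 3 semaphorins, 13 semaphorins of classes 4 to 7, 7 plexins, 2 neuropilins, 7 ephrins and 13 Eph receptors. Apart from the minimum of 20 UMIs none was chosen from its values, though earlier results of these data were known.

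Nuclei of hindbrain neurons were sequenced from TRAP2 mice aged 8 to 12 weeks, 1 library for a hot water bath and 1 for the condition labelled SNI with brush. TRAP2 mice carry an inducible Cre recombinase driven from the Fos locus, which can mark neurons active in a chosen time window. In both groups AAV-retro-H2B-GFP, a retrograde virus carrying a nuclear fluorescent protein, was given in the lumbar cord, tissue between about -7.3 and -5.2 mm from bregma was pooled over the animals of a treatment, and nuclei were sorted. The sources used here do not say how recombined nuclei were told from other virus-marked ones, nor how many animals were pooled. With 1 pooled library per treatment no test between treatments was possible. Every interval below is an exact 95% interval for counting error within the library, and every ratio compares nuclei of these libraries only.

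Guidance cues steer growing axons in the embryo, and many stay expressed in adult neurons, where they act at synapses and in the upkeep of arbors. Netrins attract through Dcc and Neo1 and repel through Unc5 receptors, whereas Slits repel through Robos. Secreted semaphorins are bound by neuropilins paired with plexins, and ephrins and Eph receptors signal in both directions at cell contacts. Netrin-Gs are anchored to the axon surface and bind the leucine-rich repeat proteins Lrrc4c and Lrrc4.

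Each nucleus was put in a class by its own transmitter genes. A nucleus with at least 5 UMIs of Tph2, the neuronal enzyme of serotonin synthesis, was a Tph2 nucleus. Of the others, those with at least 3 transmitter UMIs were glutamatergic where at least 75% came from vesicular glutamate transporters, and inhibitory where at most 25% did. The hot water bath library gave 251 glutamatergic, 56 inhibitory and 30 Tph2 nuclei, and the SNI with brush library 121, 103 and 4. The remaining nuclei were mixed or had too few transmitter UMIs (85 and 40), were called doublets (3 and 2), or carried liver genes (0 and 18). These classes are ranges of a count, not cell types: 14 and 10 nuclei lay near the 75% limit, 5 and 2 near the 25% limit, and 5 and 1 held 3 to 7 Tph2 UMIs. Serotonergic markers (6 genes, Tph2 included) summed to 3739 CPM (UMIs per 1000000 UMIs of the class) in the Tph2 nuclei of the hot water bath library, against 34.8 in glutamatergic and 64.5 in inhibitory nuclei, with none of the 6 at 0 in Tph2 nuclei. Since Tph2 also defined the class, part of this difference is built in, and the sum without Tph2 is not given here. Inhibitory markers summed to 431 CPM in those Tph2 nuclei and to 564 CPM in inhibitory nuclei, so the Tph2 class also carried Gad1, Gad2, Slc32a1 or Slc6a5 transcripts. Median depth was 38995, 31583.5 and 40064 UMIs per nucleus in the glutamatergic, inhibitory and Tph2 classes of the hot water bath library, and no cell barcode was shared between the libraries.

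Upstream windows of 4 genes are shown: Robo2 and Sema6d had the 2 highest levels per kb of gene span in Tph2 nuclei of the hot water bath library, and Sema5a and Epha3 had 0 and 1 UMI there. Each runs 5′ to 3′ over the 250 bases before the RefSeq start nearest to the GENCODE gene start. All are in build GRCm38.p6 (mm10). They lie at chr16:74411826-74412075 on the minus strand for Robo2, chr2:124089719-124089968 on the plus strand for Sema6d, chr15:32244563-32244812 on the plus strand for Sema5a, and chr16:63864176-63864425 on the minus strand for Epha3. Robo2 has 3 RefSeq starts and Sema6d has 2. Capitals mark any match, on either strand, to 4 short motifs: AGATAA (bound by GATA factors), CCGGAA (ETS factors, the family of the serotonergic regulator Fev), TAATTA (homeodomain factors) and GGGCGG (the GC box).
Robo2: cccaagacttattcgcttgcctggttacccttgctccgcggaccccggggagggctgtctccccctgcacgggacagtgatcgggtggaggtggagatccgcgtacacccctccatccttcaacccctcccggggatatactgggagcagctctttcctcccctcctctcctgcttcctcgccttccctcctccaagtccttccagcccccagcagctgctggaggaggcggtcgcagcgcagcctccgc
Sema6d: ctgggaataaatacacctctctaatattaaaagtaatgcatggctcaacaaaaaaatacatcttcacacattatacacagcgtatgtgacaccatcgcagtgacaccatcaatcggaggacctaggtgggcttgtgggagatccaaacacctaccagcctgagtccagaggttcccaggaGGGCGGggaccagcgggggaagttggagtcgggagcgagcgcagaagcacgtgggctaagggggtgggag
Sema5a: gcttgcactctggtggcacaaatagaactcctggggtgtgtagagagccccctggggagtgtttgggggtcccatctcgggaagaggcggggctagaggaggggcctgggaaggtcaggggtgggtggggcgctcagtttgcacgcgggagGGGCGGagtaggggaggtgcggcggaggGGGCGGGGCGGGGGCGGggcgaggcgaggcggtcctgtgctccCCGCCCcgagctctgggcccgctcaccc
Epha3: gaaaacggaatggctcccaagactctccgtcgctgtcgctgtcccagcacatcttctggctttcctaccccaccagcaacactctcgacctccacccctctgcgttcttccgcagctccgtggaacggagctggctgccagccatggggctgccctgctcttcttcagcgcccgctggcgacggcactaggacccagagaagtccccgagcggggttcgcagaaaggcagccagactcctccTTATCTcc
The Robo2 window held none of the 4 motifs and the Sema6d window 1 GC box. Sema5a had 5 GC boxes, some of them overlapping, and Epha3 had 1 GATA match. CpG pairs numbered 14, 9, 17 and 16 in that order, against a median of 6 over the 32851 windows of the same length in the table. Over all of those windows, 9.99% held AGATAA, 12% CCGGAA, 4.84% TAATTA and 32.7% GGGCGG. The table covers 56 of the 68 genes with 72 windows, of which 2.78%, 11.1%, 4.17% and 73.6% held the same motifs. These are letter matches and describe the windows only.

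Together the 68 genes held 329195 UMIs, which is 1.33% of all UMIs after the hot water bath and 0.992% of those after SNI with brush. Most of the signal came from receptors. Dcc, the netrin receptor, gave the largest count of any member, with 2742 CPM in glutamatergic, 1917 in inhibitory and 1814 in Tph2 nuclei of the hot water bath library. In the SNI with brush library its level was 1529 CPM in glutamatergic and 985 in inhibitory nuclei. Long genes can collect more UMIs in nuclei where introns are counted, which is not stated for these data. Levels of different genes are compared here per kilobase of gene span, without the genes that match by name only. On that scale Epha10, an Eph receptor whose kinase domain is thought to be inactive, led the glutamatergic nuclei at 4.95 CPM per kb, ahead of Dcc (2.50), Robo1 (2.45) and the ephrin Efna5 (2.41). In Tph2 nuclei of the same library the order was Robo2 (5.89), Sema6d (3.83) and Unc5c (2.98), with Epha10 at 2.69. The gene order therefore differed between the classes at its very top.

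**Figure D1:**
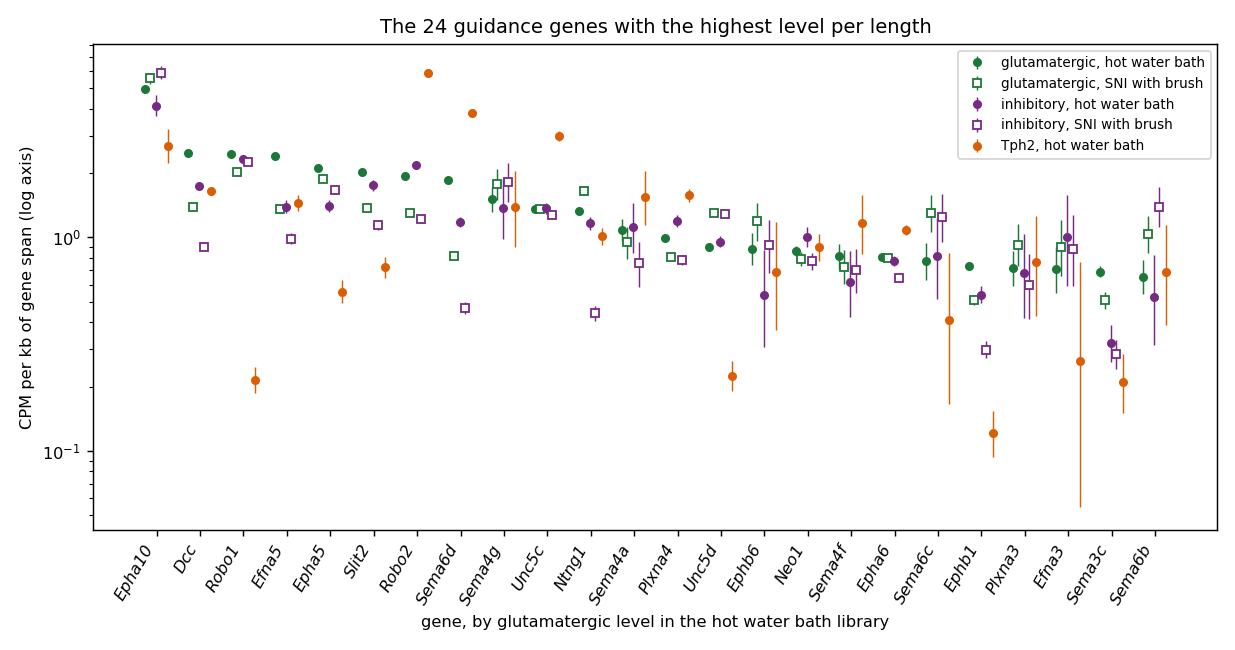
Level of 24 guidance genes in CPM per kb of gene span (log axis), by class and library, with exact 95% Poisson intervals; a gene with 0 UMIs in a class has no point there. Epha10 leads the glutamatergic and inhibitory classes, while Robo2 leads the Tph2 class of the hot water bath library (5.89 CPM per kb).

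In Tph2 nuclei the guidance genes were split: some stood at least 2-fold above the glutamatergic level, and a larger number at least 2-fold below it. The lower ones ranged from 0 UMIs in Tph2 nuclei (Sema5a among them) to 235 CPM (Slit2). In the hot water bath library 58 members had at least 20 UMIs over both classes. Of these, 8 were at least 2-fold higher in Tph2 nuclei, where 6.78% of all 14574 genes were, and 22 were at least 2-fold lower, where 14.3% of all genes were (21% in either direction). Without the genes that match by name only, 7 of 55 were higher and 22 lower. The members' median log2 ratio was -0.55, against -0.11 over all genes. Members are long genes, and long genes were more often past 2-fold: 31.7% of the quintile of genes with the longest span were, and 23 of the 34 members in that quintile. The part of gene length in this difference was not tested. Mitochondrial UMIs, 0.113% in Tph2 and 0.103% in glutamatergic nuclei, were near equal. For members with 0 UMIs in Tph2 nuclei the ratio is no bound. With those 3 set at the bound that 3 UMIs allow, the median stayed at -0.55 and 21 were at least 2-fold lower, since Sema3d (0 against 4.56 CPM) was then at least 1.91-fold lower.

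Neuropilins, the coreceptors for secreted semaphorins, went opposite ways. Nrp1 (chr8:128358604-128503363, plus strand) stood at 227 CPM in Tph2, 33.6 in glutamatergic and 43.9 in inhibitory nuclei, a log2 ratio over glutamatergic of 2.75 (2.52 to 2.98). Single Tph2 nuclei ranged from 0 to 525 CPM with a median of 225, and 2 of 30 were at 0, whereas 152 of 251 glutamatergic nuclei were. Nrp2 (chr1:62703285-62818695, plus strand) had 3.18 CPM in Tph2, 57.2 in glutamatergic and 58.5 in inhibitory nuclei, a log2 ratio of -4.0 (-6.05 to -2.81). Its 4 UMIs came from 4 of the 30 Tph2 nuclei. The per-nucleus ranges of both genes overlapped between classes, but their medians were ordered oppositely.

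Robo receptors showed the same kind of exchange. Robo2 (chr16:73891839-74411825, minus strand) had 3062 CPM in Tph2, 1010 in glutamatergic and 1140 in inhibitory nuclei, a log2 ratio of 1.60 (1.55 to 1.65). Every Tph2 nucleus held it, at 418 to 4840 CPM, and so did every glutamatergic nucleus, at 41.6 to 3171 CPM. Robo1 (chr16:72308306-73046095, plus strand), its neighbour on the chromosome, had 159 CPM in Tph2 against 1805 in glutamatergic and 1726 in inhibitory nuclei. Its log2 ratio was -3.50 (-3.71 to -3.30), and 24 of 30 Tph2 nuclei were at 0 where 6 of 251 glutamatergic nuclei were. A single nucleus gave 65.5% of the Robo1 UMIs of the Tph2 class. With the class limited to the 26 nuclei with at least 10 Tph2 UMIs, Robo1 was at 62.1 CPM with a log2 ratio of -4.85, and the Robo2 ratio was 1.64. Robo3, a receptor of commissural axons, had 0 UMIs in Tph2 and 3 in glutamatergic nuclei, too few for any statement.

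The Slit ligands were divided as well. Slit1 had 161 CPM in Tph2, 43.1 in glutamatergic and 50.9 in inhibitory nuclei, a log2 ratio of 1.91 (1.66 to 2.15), and no Tph2 nucleus was at 0. Slit3 had 242, 81.7 and 127 CPM in that order, a ratio of 1.57 (1.37 to 1.76). Slit2 was the one with less: 235 CPM in Tph2 nuclei against 654 and 569, a ratio of -1.48 (-1.65 to -1.31). Both Slit1 and Robo2 were thus present in every Tph2 nucleus, a ligand and a receptor of the same system. This was not particular to them: Sema6d, Plxna4, Unc5c, Dcc, Efna5 and Epha6 were also present in every Tph2 nucleus. Robo2 was also present in all 251 glutamatergic nuclei of this library, whereas 102 of them were at 0 for Slit1. Srgap1, which encodes a Robo-associated GTPase-activating protein and is no member, was also higher, at 479 against 112 CPM (log2 ratio 2.10, 1.95 to 2.24). It was 1 of 3 higher among 60 partner and effector genes tested, where 6.78% of all genes were. Srgap2 and Srgap3, on the same list, were not among those past 2-fold.

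Transcripts of the netrin system were higher, lower or near equal from gene to gene, also within the Unc5 receptors. Netrin-1 (Ntn1) had 26.2 CPM in Tph2 nuclei against 4.76 in glutamatergic and 5.04 in inhibitory ones, a log2 ratio of 2.47 (1.78 to 3.13), and 20 of 30 Tph2 nuclei held a UMI of it. Among its receptors, Unc5c was higher (1104 against 503 CPM, ratio 1.13, 1.05 to 1.22) and Unc5d lower (129 against 518 CPM, ratio -2.00, -2.24 to -1.78). Of the Unc5d UMIs in Tph2 nuclei, 64.2% came from 1 nucleus. Unc5a stayed within 2-fold, at 9.54 against 15.6 CPM (ratio -0.65, -1.69 to 0.14). The attractive receptors stayed within 2-fold: Dcc had a ratio of -0.60 (-0.66 to -0.53) and Neo1 of 0.06 (-0.17 to 0.28). Netrin-G1 (Ntng1) was also within 2-fold, at 369 against 481 CPM. Netrin-G2 (Ntng2), its paralog, had 1 UMI in Tph2 nuclei against 319 in glutamatergic ones, 0.795 against 31.6 CPM (log2 ratio -4.73, -10.62 to -2.83). Lrrc4c, the partner of netrin-G1, was at 224 CPM in Tph2 and 2799 in glutamatergic nuclei (log2 ratio -3.64, -3.82 to -3.47). In the SNI with brush library it was at 1574 and 3032 CPM, a ratio of -0.94 (-1.13 to -0.77) and so under 2-fold.

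**Figure D2:**
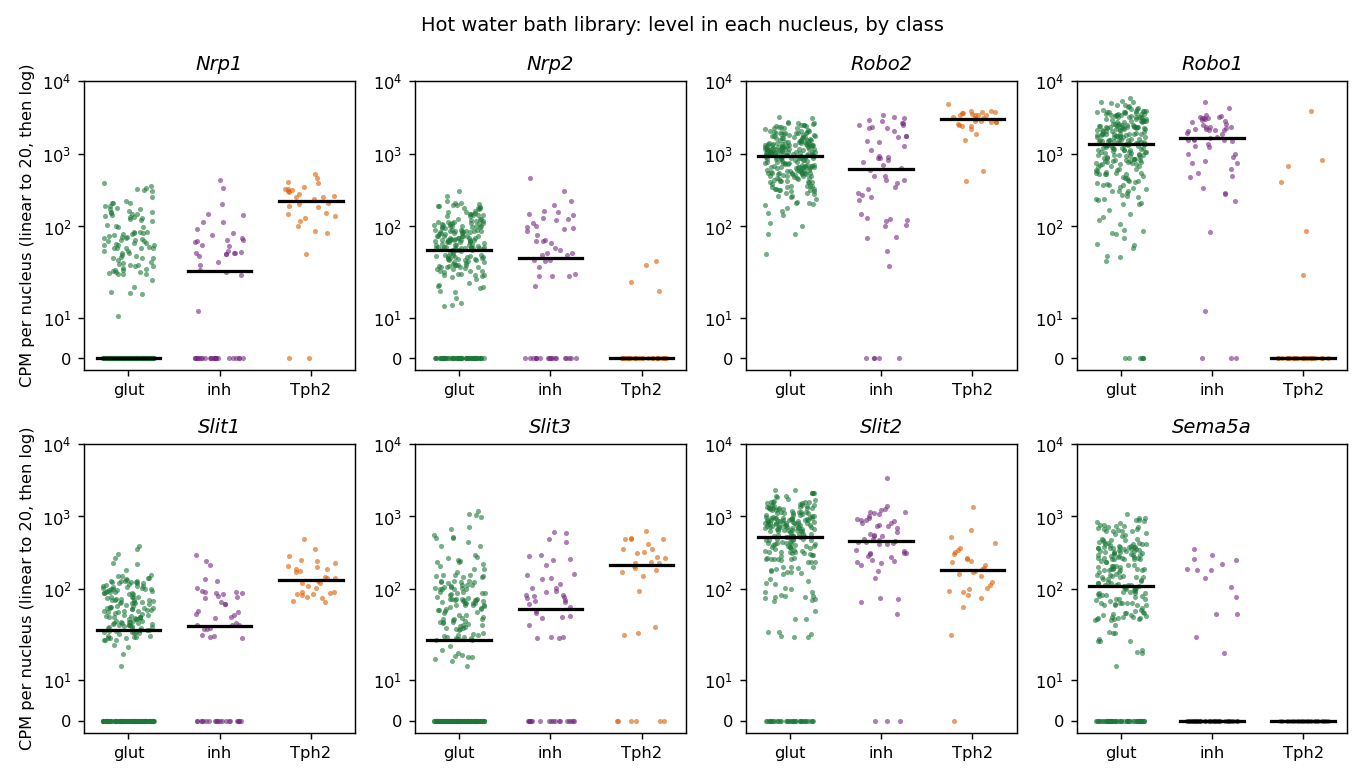
CPM in each nucleus of the hot water bath library (251 glutamatergic, 56 inhibitory, 30 Tph2) for 8 guidance genes; the axis is linear up to 20 and logarithmic above, and the black line is the median. Nrp1, Robo2, Slit1 and Slit3 sit higher in Tph2 nuclei, Nrp2 and Robo1 are at 0 in most of them, and Sema5a is at 0 in all 30.

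Among semaphorins, 4 of 5 members of class 3 and 3 of 13 of classes 4 to 7 were lower. Of all 58 members tested 22 were, and of all genes 14.3%. Those of class 3 were Sema3a (3.98 against 78.6 CPM), Sema3e (0.795 against 32.3), Sema3c (32.6 against 108) and Sema3d. The other one, Sema3f, had 3.98 and 4.07 CPM. Sema5a, a membrane semaphorin with thrombospondin repeats, had no UMI in any Tph2 nucleus of either library, against 202 CPM in the glutamatergic nuclei of the hot water bath library. It was at least 84.7-fold lower there, with 3 UMIs over the class as the floor. Its relative Sema5b had 5.57 against 71.9 CPM (log2 ratio -3.59, -5.01 to -2.64). By contrast Sema6d, a transmembrane ligand of plexin A proteins, had 2213 against 1074 CPM (ratio 1.04, 0.98 to 1.10). It was held by all 30 Tph2 nuclei and was at 0 in 4 of 251 glutamatergic nuclei. Of 6 plexins tested, the receptors for semaphorins, 1 was past 2-fold, where 21% of all genes were in either direction. It was Plxna2 (47.7 against 97.5 CPM, ratio -1.02), whereas Plxna4 was 1.59-fold higher (698 against 440 CPM). Plxna4os2, named as opposite strand to Plxna4, had 11 and 37 UMIs (8.75 against 3.67 CPM), and without the strand setting of the counting its reads and those of Plxna4 cannot be told apart.

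Of 7 Eph receptors of class A tested, 5 were lower, where 14.3% of all genes were. Epha3 had 1 UMI in Tph2 nuclei, 0.795 against 142 CPM (log2 ratio -6.90, -12.79 to -5.00), and Epha4 had 2.39 against 28.6 CPM (ratio -3.36, -5.87 to -2.02). Epha5, Epha7 and Epha8 were the other 3, with Epha8 at 0 UMIs and so at least 3.83-fold below its 9.12 CPM in glutamatergic nuclei. Epha6 and Epha10 stayed within 2-fold, at 1033 and 99.4 CPM in Tph2 nuclei. Of 4 class B receptors tested, 2 were lower, against the same 14.3% of all genes. They were Ephb1 (52.5 against 318 CPM) and Ephb3 (1 against 26 UMIs, ratio -1.14), though the interval for Ephb3 (-7.05 to 0.91) includes equality. Ephb2 had 106 CPM in both classes. Efna5, the ephrin with most UMIs, stood at 401 against 667 CPM (ratio -0.73, -0.87 to -0.60). The remaining members past 2-fold were Efnb2 (ratio -1.49, -3.27 to -0.36), Sema7a (-1.26, -3.04 to -0.12) and Efna3 (-1.22, -3.75 to 0.18), and the interval for Efna3 includes equality.

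**Figure D3:**
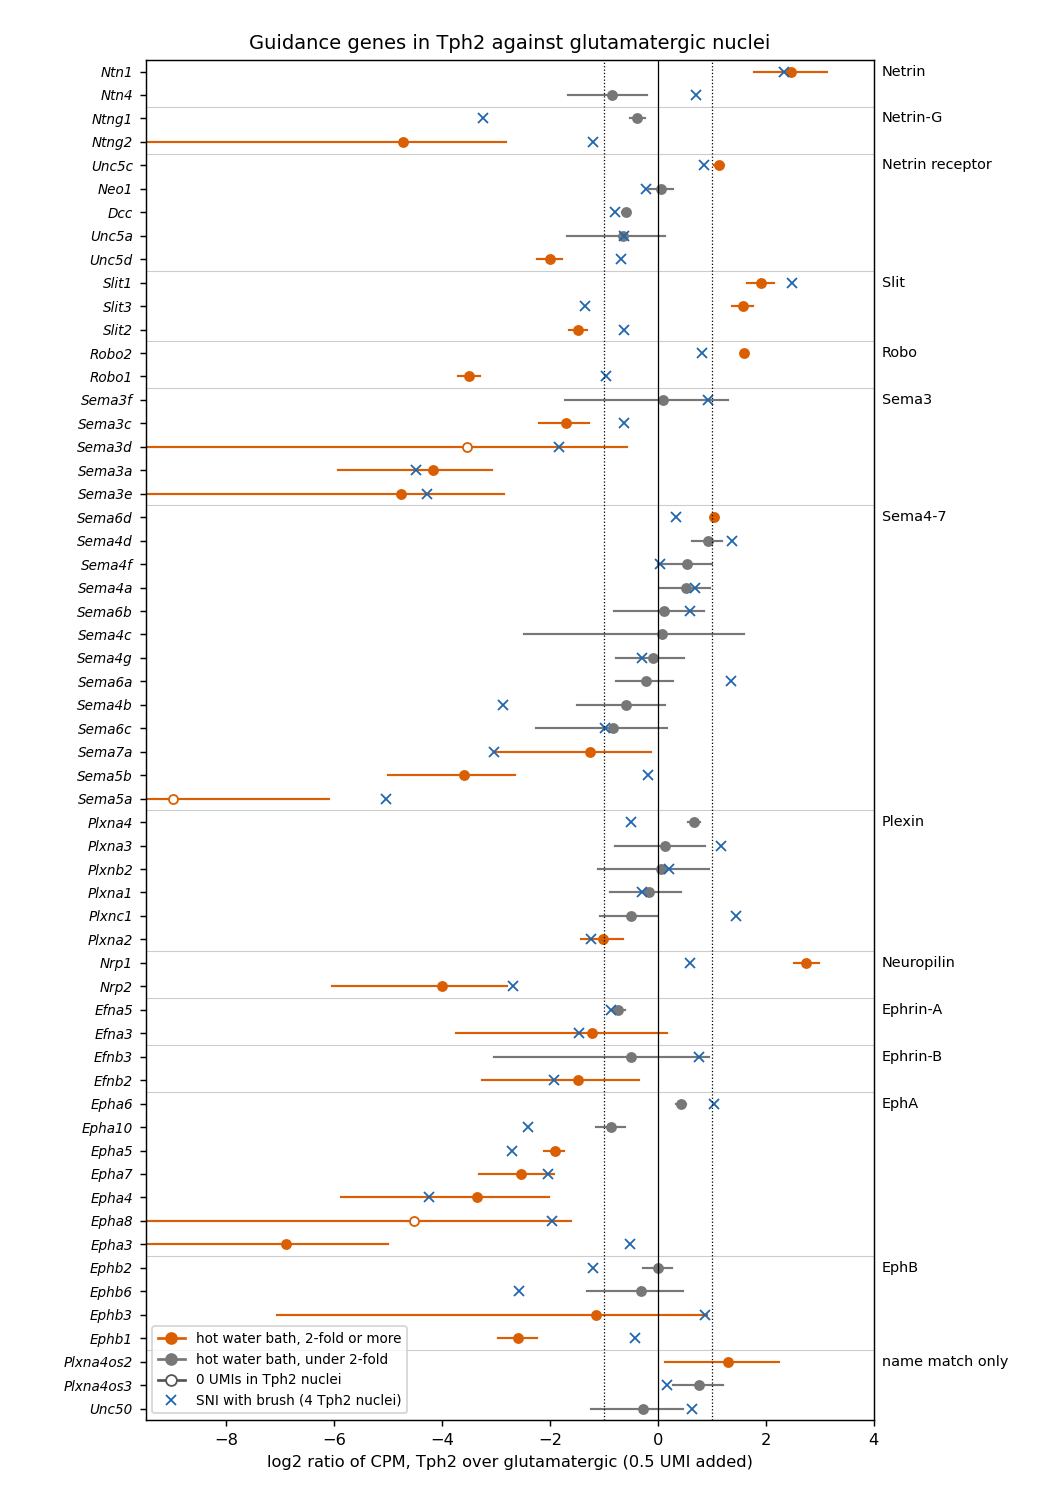
Log2 ratio of CPM, Tph2 over glutamatergic nuclei, for the 58 genes tested in the hot water bath library (circles, with exact 95% intervals cut at the left edge; open circles have 0 UMIs in Tph2 nuclei and rest on the 0.5 UMI added) and for the SNI with brush library (crosses, 4 Tph2 nuclei, intervals not drawn, and 9 of the lower members at 0 UMIs). Slit, Robo, neuropilin and Unc5 families each hold a member to the right and one to the left of the dotted 2-fold lines.

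Tph2 nuclei were set against inhibitory nuclei in the same way. Of 51 members tested in the hot water bath library, 6 were at least 2-fold higher in Tph2 nuclei (background 4.76%) and 18 lower (10.9%, and 15.7% in either direction). The 6 were Nrp1 (log2 ratio 2.36), Ntn1 (2.33), Sema6d (1.70), Slit1 (1.66), Robo2 (1.43) and Unc5c (1.13). Both comparisons use the same Tph2 nuclei, so the likeness of their lists is partly built in. Slit3 was 0.94 higher on the log2 scale here, under 2-fold, and Sema6a and Ntn4 were lower (-1.33 and -1.35) though within 2-fold of the glutamatergic level. In the SNI with brush library, with 4 Tph2 nuclei, Sema6a and Ntn4 were on the other side, at 132 against 76.7 CPM (0.81, 0.08 to 1.41) and 29.9 against 19.3 CPM (0.76, -1.04 to 1.92), with all 5 Ntn4 UMIs from 1 nucleus. Ephb1 and Epha3, lower in the hot water bath library (-2.14 and -6.15), were on the other side too, at 0.35 (-0.29 to 0.89) and 0.08 (-0.82 to 0.78). Single nuclei gave 96.3% and 93.3% of their UMIs in the Tph2 class. There Slit3 had a ratio of -0.05, Nrp1 of 0.40 (-0.54 to 1.13) and Slit1 of 1.94 (1.17 to 2.59).

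The 4 Tph2 nuclei of the SNI with brush library gave a second, much thinner reading against its glutamatergic nuclei. Over all genes tested, 15.3% were at least 2-fold higher in these Tph2 nuclei, 16.1% at least 2-fold lower, and 52.7% had a ratio above equality. Of the 7 higher members that could be tested there, 6 were on the same side and 2 past 2-fold, Slit1 (126 against 22.8 CPM) and Ntn1 (29.9 against 6.42 CPM). Slit3 was on the other side, at 59.8 against 161 CPM. Nrp1 had 83.8 against 57.5 CPM, a ratio of 0.59 whose interval (-0.34 to 1.31) includes equality. Of the 22 lower members 13 had a UMI in these nuclei, of which 12 were on the same side, 5 of them past 2-fold, and Ephb3 was on the other. The other 9 were at 0 UMIs. With 3 UMIs as the floor, 4 of the 9 (Sema5a, Sema3a, Sema3e and Epha4) were at least 2-fold lower, Sema7a was at least 1.37-fold lower, and Efna3, Epha8, Sema3d and Efnb2 had glutamatergic levels under the floor, so no side can be given. Robo1 was at 766 against 1490 CPM there and Epha3 at 89.8 against 133 CPM, with 93.3% of the Epha3 UMIs from 1 nucleus. Levels of Robo1 and Epha3 as low as in the first library were thus not seen in these 4 nuclei, whereas Sema5a, Sema3a, Sema3e and Epha4 were at 0 UMIs in them. Ntng1, within 2-fold in the first library, was at 59.8 against 598 CPM here (log2 ratio -3.25, -4.38 to -2.44). Several sums rest on few nuclei, with 66.5% of the Robo2, 67.2% of the Robo1 and 61.9% of the Slit1 UMIs each from a single nucleus.

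Equal depth gave the same order of the classes. With every nucleus thinned to 5000 UMIs, which left none out, Nrp1 was found in 56.7% of Tph2 (37.4 to 74.5%), 13.1% of glutamatergic and 21.4% of inhibitory nuclei of the hot water bath library. Slit1 was found in 53.3%, 15.1% and 17.9% in that order. Robo1 was found in 13.3%, 90.8% and 87.5%. Without thinning the Nrp1 shares were 93.3%, 39.4% and 55.4%. Sema5a was found in 0 of 30 Tph2 nuclei, which allows a share of nuclei with a UMI of up to 11.6% at this depth (exact binomial interval). These intervals cover the counting of nuclei in 1 pooled library, not differences between animals. Free RNA could put UMIs in any nucleus, and the 18 liver-gene nuclei of the SNI with brush library (median 22179.5 UMIs) give a level for nuclei that are not clearly neurons. There, Robo2 was at 23.3 CPM and Sema5a at 21.3 CPM, while Sema6d was at 174, Robo1 at 165 and Dcc at 128 CPM. Nrp1 was at 178 CPM, above its 57.5 CPM in glutamatergic nuclei, so these nuclei are no background for Nrp1. The hot water bath library had 0 such nuclei, so they give no level of free RNA for it.

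Between inhibitory and glutamatergic nuclei, the share of guidance genes past 2-fold in both libraries was near that of all genes. Of 58 members tested in both, 0 were at least 2-fold higher in inhibitory nuclei in both libraries (background 0.564%) and 1 was lower (0.822%, and 1.39% in either direction). The 1 was Ntng2, at 8.06 against 31.6 CPM in the hot water bath library and 14.6 against 34.4 CPM in the SNI with brush library (log2 ratios -1.93, -2.80 to -1.25, and -1.23, -1.70 to -0.79). In Tph2 nuclei it had 1 UMI in the first library and 2 in the second. Inhibitory nuclei had a higher mitochondrial share than glutamatergic ones in both libraries (0.347% against 0.103%, and 0.679% against 0.373%), and the part of this in the ratios was not tested. The members' median log2 ratios were -0.05 and -0.06, against 0.03 and 0.07 over all genes. No p-value can be given for the 0, as there is 1 library per treatment and nuclei are not replicates.

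Some smaller ratios lay on the same side in both libraries, with intervals that exclude equality. Counting ratios of any size, 2 of the 58 members were higher in inhibitory nuclei in this way and 11 were lower, Ntng2 among them. Higher in inhibitory nuclei were Sema6a (70.6 against 32.7 CPM, then 76.7 against 52.5) and Epha4 (41.3 against 28.6, then 82.5 against 56.7). Among the lower were also Dcc (log2 ratios -0.52 and -0.63), Efna5 (-0.79 and -0.47), Sema6d (-0.65 and -0.82) and Ephb1 (-0.44 and -0.77). Robo1 and Robo2 were near equality in both, with ratios of -0.06 and 0.17 for Robo1 and 0.17 and -0.09 for Robo2. Among 61 partner and effector genes of these pathways, 1 passed the same rule: Dscaml1, a cell adhesion molecule, was higher in inhibitory nuclei at 131 against 13.7 CPM and 132 against 47.1 CPM.

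For a few members the difference between the classes was unlike in the libraries, in size or in direction. Ntng1 was at 160 CPM in inhibitory and 598 in glutamatergic nuclei of the SNI with brush library (log2 ratio -1.90, -2.03 to -1.77), but at 423 and 481 CPM in the hot water bath library. Sema5a and Sema5b did the reverse: they were lower in inhibitory nuclei of the hot water bath library (33.3 against 202 CPM and 15.1 against 71.9 CPM), with SNI with brush values of 85.0 against 98.0 CPM and 44.7 against 43.9 CPM. Slit3 was 127 against 81.7 CPM in the first library and 64.9 against 161 CPM in the second. Whether these differences between libraries exceed those between animals was not tested and cannot be, with 1 library each.

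**Figure D4:**
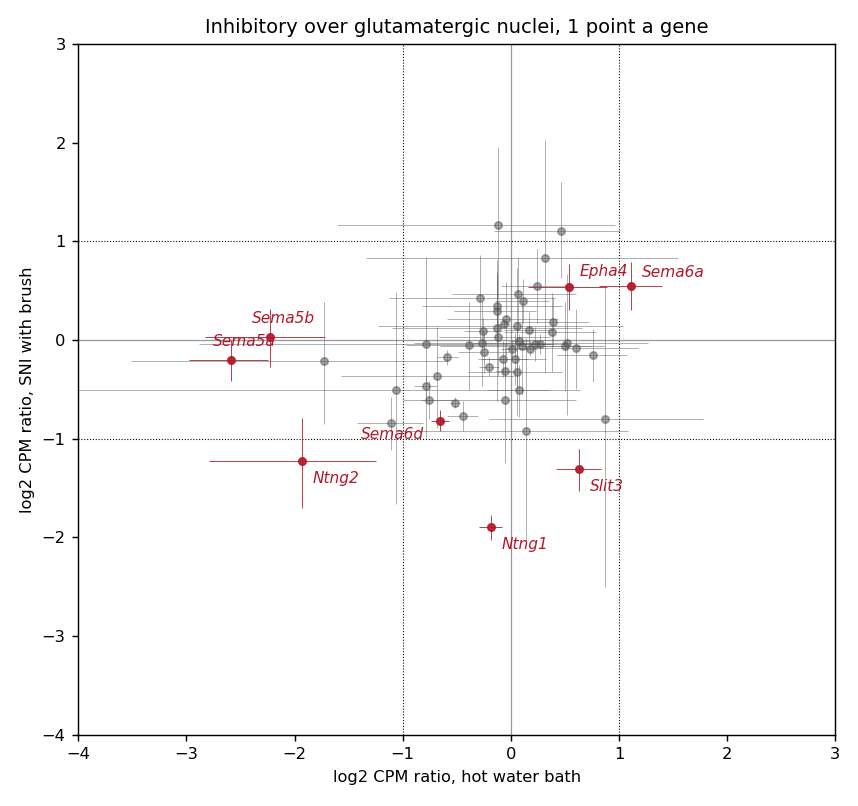
Log2 ratio of CPM, inhibitory over glutamatergic nuclei, in the hot water bath library (horizontal) against the SNI with brush library (vertical), 58 genes with exact 95% intervals and dotted 2-fold lines; named genes are in red. Most genes lie within 2-fold in both, Ntng2 alone is past 2-fold in both, and Ntng1, Slit3, Sema5a and Sema5b are off the diagonal.

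Members also differed in how widely they were spread over the glutamatergic nuclei. Neo1, Plxna4 and Dcc were broad: 29.5% of the nuclei of the hot water bath library held 50% of the UMIs of each. Ntn1 was narrow, with 1.59% of the nuclei holding 50% of its UMIs and 23 of 251 nuclei holding any. Sema3e (2.79%) and Slit3 (4.78%) were narrow too, and Slit3 again in the SNI with brush library (4.96%), where 1 nucleus gave 23.8% of its UMIs. Class sums of the narrow genes therefore rest on few nuclei.

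Position along the axis was read from Hox genes of groups 4 to 8, whose expression begins in the caudal hindbrain. Glutamatergic nuclei with at least 2 such UMIs (43 and 51 in the libraries) were set against those with 0 (159 and 38). Of 55 members tested in both libraries, 0 were at least 2-fold higher in both (background 0.408%) and 0 lower (0.392%, and 0.8% in either direction). In the hot water bath library alone, 3 of 58 members were at least 2-fold higher (all genes 2.51%) and 4 at least 2-fold lower (4.19%). On the higher side, Epha4 was at 59.2 against 17.7 CPM, Slit3 at 164 against 51.4 CPM and Sema3a at 119 against 59.1 CPM. Among the lower were Epha3 (log2 ratio -1.02) and Ntn1 (-1.87). In the SNI with brush library Epha4, Slit3 and Sema3a had 59.9 against 63.1, 135 against 221 and 71.7 against 55.0 CPM, and Epha3 had a log2 ratio of 0.32. Ntn1 had 10.4 against 1.86 CPM there, with 96.4% of the UMIs from 1 nucleus.

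Between the libraries, the share of guidance genes past 2-fold was near or below that of all genes on the CPM scale, and the split depended on the scaling. In glutamatergic nuclei 4 of 60 members had a level after SNI with brush at least 2-fold above that after the hot water bath (background 13.6%), and 2 were as far below (3.7%, and 17.3% in either direction). In inhibitory nuclei 8 of 56 were above (background 15.4%) and 2 below (3.26%, and 18.6% in either direction). With median-of-ratios size factors, 2 members were above and 4 below in glutamatergic nuclei (all genes 9.87% and 5.08%), and 7 above and 7 below in inhibitory nuclei (9.65% and 5.65%). The ratio followed gene length over all genes: in glutamatergic nuclei its median was 0.60 in the quintile of genes with the shortest span and -0.07 in the quintile with the longest, which held 34 of the 60 members. The mitochondrial shares given above were also higher after SNI with brush in both classes. So were markers of other cells: in glutamatergic nuclei, 4 ependymal and choroid genes summed to 227 against 12.3 CPM, 6 oligodendrocyte genes to 182 against 73.7, 5 astrocyte genes to 19.1 against 3.77 and 12 liver genes to 16.2 against 0.992, with Alb and 7 other liver genes at 0 after the hot water bath. In inhibitory nuclei the ependymal and choroid sum was 260 against 7.06 CPM, the oligodendrocyte sum 179 against 99.8 and the liver sum 22.9 against 1.01. The ependymal and choroid list is Foxj1, Ttr, Kl and Aqp1. In the Tph2 nuclei after SNI with brush it summed to 251 CPM with Foxj1, Kl and Aqp1 at 0, so Ttr alone gave that sum. The liver-gene nuclei had 2047 CPM of this list with Foxj1 at 0, so it does not separate these cells from liver-gene nuclei. Microglial genes did not follow, at 68.7 against 74.0 CPM in glutamatergic nuclei. The part of gene length, mitochondrial share, other cells and animals in these ratios was not tested, and treatment and library cannot be told apart.

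Some members had alike ratios in both classes. Dcc was at 1529 against 2742 CPM in glutamatergic nuclei (log2 ratio -0.84, -0.88 to -0.81) and at 985 against 1917 CPM in inhibitory nuclei (-0.96, -1.03 to -0.89). Sema6d was at 475 against 1074 and 269 against 683 CPM (-1.18 and -1.34), the 1 member at least 2-fold lower in both classes. Epha4 was higher at 56.7 against 28.6 and 82.5 against 41.3 CPM, a ratio of 0.99 in each class and so just under 2-fold. Unc50 and Sema3d were past 2-fold higher in both. Sema7a, a membrane-anchored semaphorin, was higher in glutamatergic nuclei at 24.6 against 10.4 CPM (1.24, 0.86 to 1.62), while in inhibitory nuclei its ratio was 0.55 (-0.04 to 1.21).

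Others were on opposite sides in the classes. Slit3 was at 161 against 81.7 CPM in glutamatergic nuclei (log2 ratio 0.98) and at 64.9 against 127 CPM in inhibitory ones (-0.96). Sema5a was at 98.0 against 202 CPM (-1.04, -1.18 to -0.91) and at 85.0 against 33.3 CPM (1.34, 0.97 to 1.76), and Sema5b had ratios of -0.71 and 1.54. Ntng1 was at 598 against 481 CPM (0.31) and at 160 against 423 CPM (-1.40, -1.56 to -1.25). The plot shows the 56 members tested in both classes. None of the differences between classes was tested.

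**Figure D5:**
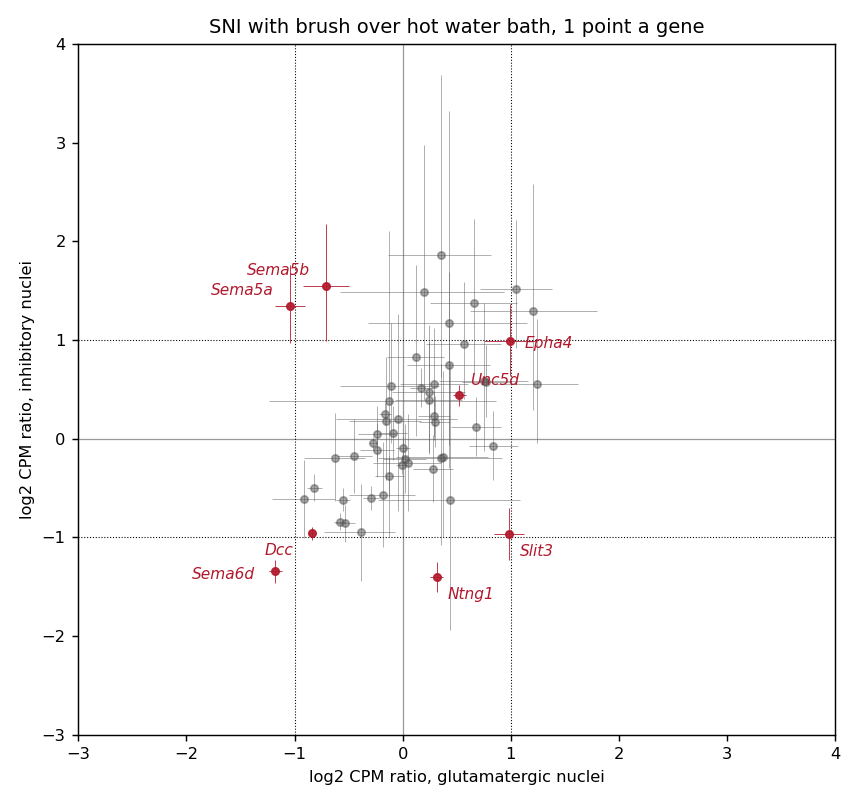
Log2 ratio of CPM, SNI with brush over hot water bath, in glutamatergic nuclei (horizontal) against inhibitory nuclei (vertical), 56 genes with exact 95% intervals and dotted 2-fold lines; named genes are in red. Dcc and Sema6d are lower in both classes and Epha4 is higher in both, while Slit3, Ntng1, Sema5a and Sema5b are on opposite sides.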

How the data were processed

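Nuclei were profiled with 10x Chromium 3′ v3 chemistry, per the labels' protocols. The authors deposited 1 table per treatment of whole-number UMI counts per gene and nucleus, not normalized. Cell Ranger 5.0, the mm10 build and Seurat (no version stated) were used, per the submitters' processing notes. Whether introns were counted, the strand setting and the filter on nuclei are not stated in the labels. Positions are from GENCODE vM21, upstream windows from RefSeq (GRCm38.p6).

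Nuclei with at least 0.2% liver-gene UMIs and Scrublet doublets (scanpy 1.11.5) were left out. Counts were summed per library and class and scaled to CPM. Log2 ratios add 0.5 UMI, with exact conditional 95% intervals. A gene was tested with at least 20 UMIs over the groups compared, and counted where it differed at least 2-fold. The 2 libraries held 16344606 and 11298755 UMIs. There was 1 library per treatment, so no test across samples exists and no p-value is given. Python 3.11.15, numpy 2.4.6, scipy 1.17.1 and pandas 2.3.3 were used, and the ratio step was tested on simulated data.

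The members and lists were chosen with earlier results of these data known. Named were members past 2-fold in both libraries with intervals excluding equality, the 6 highest and 6 lowest Tph2 ratios, the 4 highest and 4 lowest ratios between libraries with at least 50 UMIs and at most 25% from 1 nucleus, the member with most UMIs in each family, and the netrin, netrin-G, Slit, Robo and neuropilin genes with Dcc and Neo1. Other members and partner genes were named after their values were seen. Alternatives changed the class limits, the scaling, the UMI minimum and the fold.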

Additional observations from a re-analysis of the deposited data

Results flagged for a closer look

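The log2 ratios below lay on opposite sides of equality in the 2 groups compared, each with a counting interval that excludes equality. None of these differences was tested, since each treatment has 1 library.

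For inhibitory over glutamatergic nuclei, Slit3 had 0.63 after the hot water bath and -1.31 after SNI with brush, Robo1 had -0.06 and 0.17, and Robo2 had 0.17 and -0.09. The values of both Robo genes are small, and with per-nucleus means those after the hot water bath changed sign (0.0775 for Robo1 and -0.0215 for Robo2), which ends the opposition.

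For Hox-positive over Hox-negative glutamatergic nuclei, in the same order of libraries, the ligand Slit3 had 1.67 and -0.71, and Slit2 had 0.37 and -0.23. The receptor Robo2 had -0.22 and 0.61, Nrp1 had -0.49 and 0.66, and Epha3 had -1.02 and 0.32. Ntng1 had -0.13 and 0.28. Ntn1 had -1.87 and 2.28, on 3 against 42 and 28 against 3 UMIs. In the SNI with brush library, the ratios of Slit3, Ntn1 and Epha3 changed sign under some alternatives, which ends the opposition there: Slit3 lay between 0.0390 and 0.98, Ntn1 at -2.40 and -1.47, and Epha3 at -0.17 and -0.0236. Ntng1 after the hot water bath likewise had 0.24 and 0.0701.

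For SNI with brush over hot water bath, in glutamatergic and then inhibitory nuclei, Sema5a had -1.04 and 1.34, Sema5b had -0.71 and 1.54, and Slit3 had 0.98 and -0.96. Ntng1 had 0.31 and -1.4, and Epha5 had -0.16 and 0.25. Both class 5 semaphorins thus lay on the same sides.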

How the results depend on the processing

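No paired analysis was possible because each treatment has 1 library. The counts for Tph2 against glutamatergic nuclei stayed within 1.5 times under every alternative run. At a 1.5-fold limit 4 members were lower in inhibitory than glutamatergic nuclei (1.92% of all genes). At 100 UMIs or more 11 were lower in Tph2 than inhibitory nuclei (8.61% of all genes). Between the libraries, glutamatergic nuclei had 2 higher and 4 lower with median-of-ratios size factors (all genes 9.87% and 5.08%). They had 1 lower with the 90% class limit (3.57%) or per-nucleus means (3.76%), and 2 higher without each gene's top nucleus (12.8%). From 5 UMIs 7 were higher (18.0%), and at 1.5-fold 13 were higher (26.8%) and 7 lower (8.7%). Inhibitory nuclei had 5 lower with the 90% limit (all genes 2.89%) and 7 lower with size factors (5.65%). They had 4 higher at 100 UMIs (10.3%) and 11 lower at 1.5-fold (8.29%). The Hox comparison had 2 lower without the top nucleus (all genes 0.473%) and 1 from 5 UMIs (1.25%). It had 1 lower with at least 3 Hox UMIs (0.647%) and 3 at 1.5-fold (1.8%). Size factors moved the median of all genes by 0.18 and 0.24 between the libraries (glutamatergic, inhibitory), and by -0.14 and -0.15 for Tph2 over glutamatergic and inhibitory nuclei.

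Some single log2 ratios changed sign. Inhibitory over glutamatergic, hot water bath: Slit2 0.0336 (nuclei of one transmitter kind only), Robo2 -0.0215 and Robo1 0.0775 (per-nucleus means). Tph2 over inhibitory: Sema3c 0.14 (one kind only) and Dcc 0.0703 (size factors). In the Hox comparison, Ntng1 in the hot water bath library had 0.24 (90% limit) and 0.0701 (3 Hox UMIs). In the SNI with brush library Slit3 had 0.98 (90% limit), 0.0390 (one kind only) and 0.12 (top nucleus out), Sema3a -0.36 (90% limit) and -0.0276 (3 Hox UMIs), and Sema6d 0.24 (90% limit) and 0.18 (at most 0.5% mitochondrial UMIs). Ntn1 had -2.40 (one kind only) and -1.47 (top nucleus out), and Epha3 -0.17 (one kind only) and -0.0236 (per-nucleus means). The cause was not tested. Counting error limits members with few UMIs, above all in the 4 Tph2 nuclei of the SNI with brush library.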

Other observations

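The 18 nuclei carrying liver genes, all in the SNI with brush library, held guidance genes of their own. Sema4g, a transmembrane semaphorin, stood at 349 CPM there and had 22.0% of its UMIs in them. For Efna1, an ephrin, the share was 76.1% (35 of 46 UMIs), for the receptor Epha1 it was 51.9% (14 of 27), and for Ephb4 it was 50% (14 of 28). These 3 genes had under 20 UMIs in all other nuclei together, so their place among the members rests on the liver-gene nuclei. The median share over the members was 0.521%. Dcc was at 128 CPM and Robo1 at 165 CPM in the same nuclei, with Ntn1 at 0.

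Of 60 partner and effector genes tested in Tph2 against glutamatergic nuclei of the hot water bath library, 3 were at least 2-fold higher and 9 lower, where 6.78% and 14.3% of all genes were, so the counts are near the background. Beside Srgap1, the higher ones were Grip1, a scaffold that binds ephrins and glutamate receptors (5365 against 1077 CPM, log2 ratio 2.32, 2.27 to 2.36), and Rgmb, a ligand of Neo1 (105 against 17.4 CPM, 2.60, 2.26 to 2.93). In the 4 Tph2 nuclei of the SNI with brush library the ratios were 2.20 for Srgap1, 1.17 for Grip1 and 0.85 for Rgmb, whose interval (-0.94 to 1.99) includes equality. Beside Lrrc4c, the lower ones included Flrt2, a ligand of Unc5 receptors (14.3 against 130 CPM, -3.14, -3.94 to -2.51), and Vav3, an exchange factor (12.7 against 126 CPM, -3.26, -4.12 to -2.60). Met, Dock1, Pdzrn3, Dpysl4, Dscaml1 and Rgma were the other 6, with ratios from -3.88 to -1.23.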
